A study of Mus musculus with 4 samples.

Results

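The circadian clock genes described here were the 10 genes Per1, Per2, Per3, Cry1, Cry2, Nr1d1, Nr1d2, Arntl, Clock and Dbp. They were chosen by symbol, each had 1 probe set annotated to its symbol alone, and they were 10 of 19938 genes tested. The cells were ATDC5, a mouse line of chondrocyte progenitors, and total RNA of each sample went on 1 array. The 2 day 0 samples were cells kept undifferentiated in basal medium with serum and ascorbic acid, and the 2 day 15 samples were cells that had the same medium with insulin, transferrin and selenite added for 15 days. No group was kept for 15 days without the supplement, so time in culture, supplement and differentiation cannot be told apart. The labels used here do not state the hour of harvest, the time since the last change of medium or any synchronisation of the cultures. Each array is a single reading of a population whose clock genes may cycle, and fewer expressing cells and less RNA per cell cannot be told apart in bulk RNA.

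The circadian clock is a transcriptional feedback loop. ARNTL, also called BMAL1, pairs with CLOCK and activates genes with E-box sequences, among them the Per, Cry and Nr1d genes and Dbp. The PER and CRY proteins then repress ARNTL and CLOCK, and a second loop runs through the nuclear receptors NR1D1 and NR1D2 (REV-ERB alpha and beta), which repress Arntl through ROR elements, while DBP and its relatives act on D-box sequences. Cartilage and cultured chondrocytes are known to have a working clock.

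None of the 10 clock genes passed the test between day 15 and day 0. The nearest were Arntl, Dbp and Per3, which were 1.73-fold, 1.97-fold and 1.70-fold higher at day 15 by the group means. By limma with Benjamini-Hochberg adjustment over all genes, adjusted p for the 10 ran from 0.116 for Arntl to 0.985 for Nr1d2. Of all genes, 1.72% were called at an adjusted p below 0.05, 1.3% higher and 0.411% lower. The smallest difference called for any gene was 1.04 log2, and the largest among the 10 was 0.98, for Dbp. At an unadjusted limma p below 0.05 there were 3 clock genes, all higher at day 15, against 12.2% of all genes (7.38% higher and 4.78% lower). For 6 of the 10, namely Clock, Per1, Per2, Cry1, Cry2 and Nr1d2, the 95% interval of the difference lay within 1 log2, a 2-fold change, in either direction. The median difference of the 10 was −0.09 log2, beside 0.02 for all genes, and their median absolute difference was 0.21, beside 0.165.

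**Figure D1:**
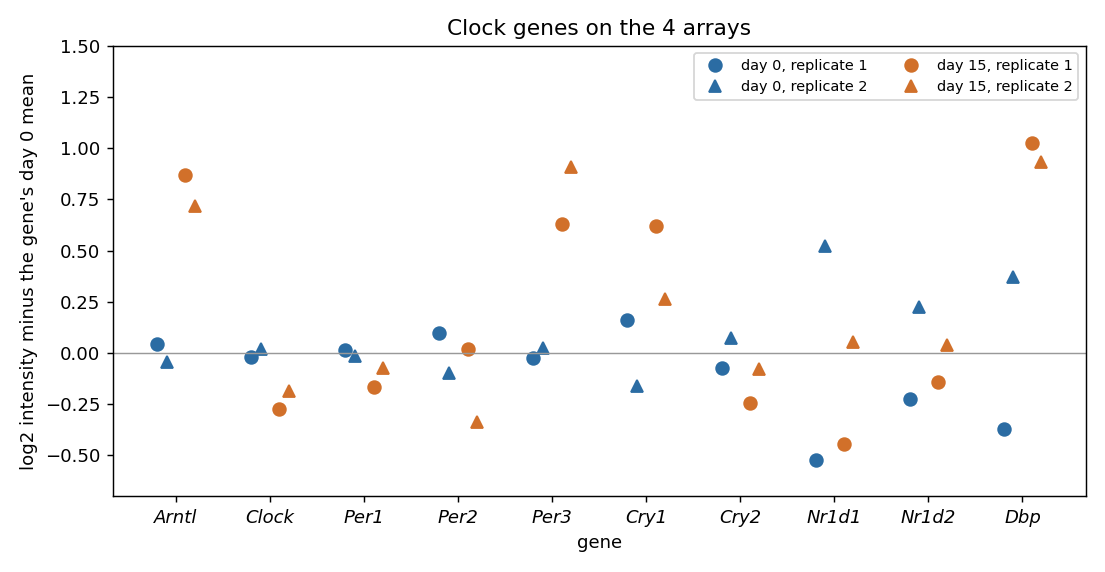
Log2 intensity of the 10 clock genes on each of the 4 arrays, each gene set to its own day 0 mean, with day 0 in blue, day 15 in orange, circles for replicate 1 and triangles for replicate 2. Both day 15 points of Arntl, Per3, Cry1 and Dbp lie above both day 0 points, and the points of Nr1d1 spread more by replicate than by day.

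For 4 clock genes both day 15 arrays lay above both day 0 arrays, which held for 22.3% of all genes, and for 3 both lay below, which held for 17.8%. Thus 7 of the 10 did not overlap between days, beside 40.1% of all genes. The other 3, Per2, Nr1d1 and Nr1d2, overlapped between days. The 4 higher genes were Arntl, Per3, Cry1 and Dbp, and they were the same 4 on the deposited scaling and after centring each array on its median. Of the 3 lower genes, Clock was also below on both other scalings, whereas Per1 and Cry2 overlapped between days on the deposited scaling.

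In the activating arm, Arntl (probe set 10556463) read 8.93 and 8.84 at day 0 and 9.76 and 9.60 at day 15, given here and below as log2 intensity of replicate 1 and then replicate 2. Both pairs were tight and they did not overlap. The difference was 0.79 ± 0.17 log2 (SE), with a 95% interval of 0.38 to 1.21, and the limma adjusted p was 0.116. Its partner Clock (probe set 10530733) read 12.45 and 12.49 at day 0 and 12.20 and 12.29 at day 15. The pairs were again close, with day 15 slightly lower, by −0.23 ± 0.16 log2 (SE, interval −0.63 to 0.17, limma adjusted p = 0.727).

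Among the repressors of the first loop, Per3 (probe set 10518781) read 9.17 and 9.22 at day 0 and 9.82 and 10.10 at day 15. Day 15 was higher on both arrays, and replicate 2 was the higher of that pair. The difference was 0.77 ± 0.18 log2 (SE), with an interval of 0.33 to 1.21 and a limma adjusted p of 0.15. Per1, which also responds quickly to serum, cAMP and glucocorticoids, read 10.04 and 10.02 at day 0 and 9.86 and 9.96 at day 15, so all 4 arrays were close. Its difference was −0.12 ± 0.16 log2 (SE, interval −0.52 to 0.28). Per2 read 9.31 and 9.12 at day 0 and 9.23 and 8.88 at day 15. The days overlapped, and the difference was −0.16 ± 0.20 log2 (SE, interval −0.65 to 0.33).

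The cryptochromes are the other repressors of that loop. Cry1 read 9.04 and 8.72 at day 0 and 9.50 and 9.14 at day 15. On both days replicate 1 was the higher array, by 0.32 and 0.36 log2, so the lower day 15 array stood only just above the higher day 0 array. The difference was 0.44 ± 0.21 log2 (SE, interval −0.08 to 0.97, limma adjusted p = 0.519). Cry2 read 9.79 and 9.94 at day 0 and 9.62 and 9.79 at day 15. Replicate 2 was higher on both days, and the difference of −0.16 ± 0.17 log2 (SE, interval −0.59 to 0.26) was about as large as those gaps.

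The REV-ERB genes of the second loop varied more between the arrays of a day than between days. Nr1d1 (probe set 10390691) read 11.75 and 12.80 at day 0 and 11.83 and 12.33 at day 15. Replicate 2 was higher than replicate 1 by 1.05 log2 at day 0 and by 0.50 at day 15. The day 0 gap was wider than that of 98.0% of all genes. The day difference was −0.20 ± 0.38 log2 (SE), and its interval of −1.13 to 0.73 includes a level 2-fold lower. Nr1d2 read 11.80 and 12.25 at day 0 and 11.89 and 12.07 at day 15. Replicate 2 was again the higher array on both days, by 0.45 and 0.18 log2, and the day difference was −0.05 ± 0.21 (SE, interval −0.58 to 0.48). The sign of both genes turned when 1 array was left out: without day 0 replicate 2 the difference was 0.33 for Nr1d1 and 0.18 for Nr1d2, and without day 15 replicate 1 it was 0.05 and 0.04.

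Dbp, the D-box activator that is a direct output of ARNTL and CLOCK (probe set 10553092), read 10.65 and 11.39 at day 0 and 12.05 and 11.96 at day 15. Its day 15 arrays were close together, while the day 0 arrays were 0.74 log2 apart, a wider gap than that of 94.5% of all genes. The difference was 0.98 ± 0.27 log2 (SE), with an interval of 0.31 to 1.65 and a limma adjusted p of 0.215. Without day 0 replicate 1 it was 0.61 log2, and without day 0 replicate 2 it was 1.35 (limma adjusted p = 0.503 and 0.0829). The 3 genes whose values over the 4 arrays lay closest to Dbp, after each gene was set to its own mean, were Gnptg, a subunit of the phosphotransferase that tags lysosomal enzymes, the pseudogene Trim30e-ps1 and the tetraspanin Tspan11. Their Euclidean distances were 0.03, 0.10 and 0.16 log2, out of 18618 genes searched over only 4 arrays. Trim30e-ps1 was dim, with 5.61 and 6.28 at day 0 and 6.95 and 6.98 at day 15.

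The promoters of Per3, Cry1, Nr1d1 and Arntl are printed because each held letters of a clock motif, and because these genes cover both loops. RefSeq windows of 250 bases before to 50 bases after the start site (build GRCm38.p6) matched 9 of the 10 clock genes, in 13 windows. The motifs searched on both strands were the E-box CACGTG, the E′-box CACGTT, the D-box TTATGTAA or TTACGTAA, the ROR element core TAGGTCA or TGGGTCA and the cAMP response element TGACGTCA. No motif contains another, and 6 of the 13 windows held at least 1 match. Capitals mark the matches. The windows are chr4:151044616-151044915 on the minus strand for Per3, chr10:85185005-85185304 on the minus strand for Cry1, chr11:98775328-98775627 on the minus strand for Nr1d1 and chr7:113207261-113207560 on the plus strand for Arntl, 5′ to 3′ in the direction of the gene.
Per3: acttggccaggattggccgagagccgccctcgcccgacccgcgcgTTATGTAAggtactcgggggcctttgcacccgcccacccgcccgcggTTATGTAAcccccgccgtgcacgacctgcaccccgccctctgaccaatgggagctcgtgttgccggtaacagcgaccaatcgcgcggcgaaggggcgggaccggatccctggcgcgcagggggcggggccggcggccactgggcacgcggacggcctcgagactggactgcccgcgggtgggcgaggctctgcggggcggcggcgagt
Cry1: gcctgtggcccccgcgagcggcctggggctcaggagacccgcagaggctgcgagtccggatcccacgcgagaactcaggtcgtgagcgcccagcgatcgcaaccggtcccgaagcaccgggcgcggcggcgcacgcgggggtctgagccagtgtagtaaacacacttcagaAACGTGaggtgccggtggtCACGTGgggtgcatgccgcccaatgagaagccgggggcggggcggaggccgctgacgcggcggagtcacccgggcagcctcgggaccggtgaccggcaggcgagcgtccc
Nr1d1: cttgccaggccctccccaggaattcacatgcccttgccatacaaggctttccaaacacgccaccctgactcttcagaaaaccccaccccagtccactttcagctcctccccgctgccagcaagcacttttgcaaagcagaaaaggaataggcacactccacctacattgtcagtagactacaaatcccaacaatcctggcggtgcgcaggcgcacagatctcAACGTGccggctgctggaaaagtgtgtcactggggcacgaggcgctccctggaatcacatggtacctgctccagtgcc
Arntl: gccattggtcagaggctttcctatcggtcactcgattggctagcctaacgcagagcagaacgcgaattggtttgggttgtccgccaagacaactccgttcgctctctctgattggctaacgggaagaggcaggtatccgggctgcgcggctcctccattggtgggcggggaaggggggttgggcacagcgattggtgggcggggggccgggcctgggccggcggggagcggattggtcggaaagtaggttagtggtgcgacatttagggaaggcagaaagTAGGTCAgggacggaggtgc

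The Per3 window held 2 D-boxes, which start 205 and 158 bases before the start site, and 1.06% of all 32851 windows held one. Cry1 held an E-box 60 bases before its start site, as did 7.15% of windows, and an E′-box 79 bases before it, read as AACGTG. The Nr1d1 window held an E′-box 28 bases before the start site, and E′-boxes were in 4.68% of windows. In Arntl a ROR element core began 31 bases into the transcript in this window, and 6.45% of windows held that core. Of the windows not printed, a Per1 window held an E-box 166 bases before its start site and that of Cry2 an E′-box at the same distance. The other Per1 window, the other Arntl window and those of Nr1d2, Clock and Dbp held no match. The cAMP response element was in 1.79% of all windows and in none of the 13. These matches describe the letters of the windows, and no binding was measured.

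**Figure D2:**
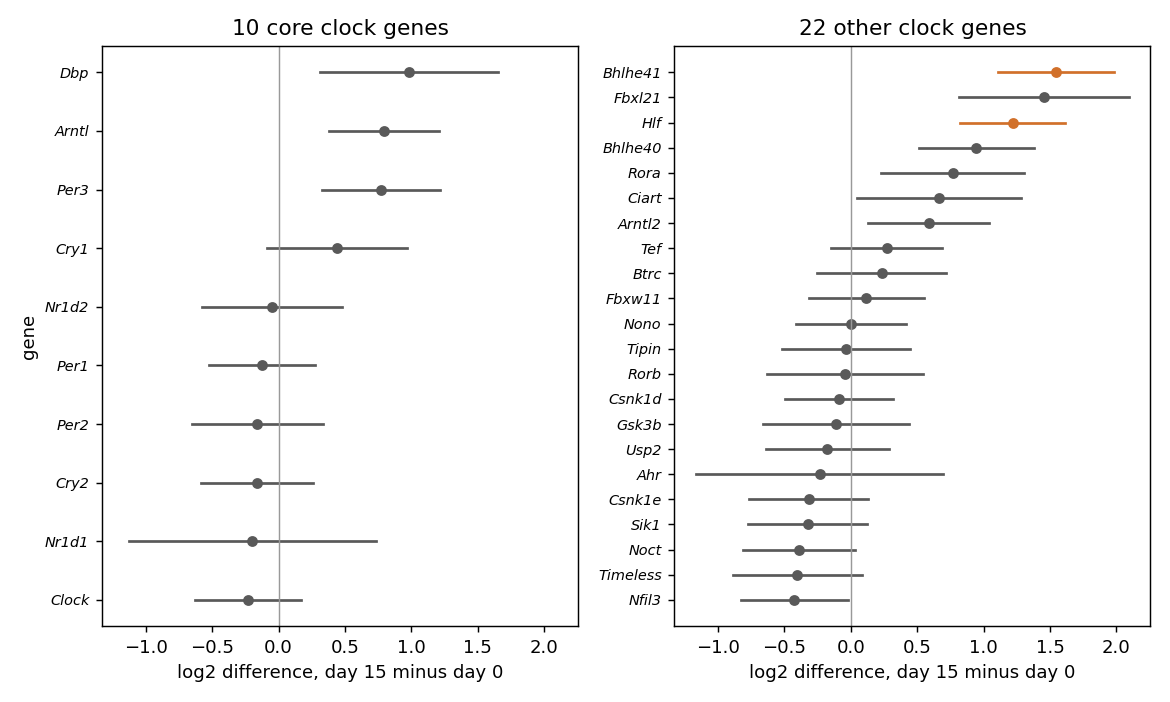
Log2 difference, day 15 minus day 0, for the 10 clock genes (left) and 22 other clock genes (right), with bars for limma's 95% interval and orange for an adjusted p below 0.05. Bhlhe41 and Hlf are the orange genes, and the interval of Nr1d1 is the widest on the left.

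The wider clock network was read from a list of 25 other genes, of which 22 were measured. Of these, 2 rose, none fell and 20 did not pass by limma over all genes, beside 1.72% of all genes called. Bhlhe41 (DEC2), an E-box repressor of ARNTL and CLOCK activity, read 9.11 and 9.29 at day 0 and 10.66 and 10.84 at day 15. All arrays of a day were close, and it rose 2.92-fold (1.54 ± 0.18 log2, SE, limma adjusted p = 0.019). Hlf, a D-box factor of the Dbp family, read 7.51 and 7.46 at day 0 and 8.71 and 8.70 at day 15. It rose 2.33-fold (1.22 ± 0.16 log2, SE, limma adjusted p = 0.0294).

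Hlf lost its call when any 1 array was left out (limma adjusted p = 0.0915 to 0.12), while its difference stayed between 1.20 and 1.24 log2. Bhlhe41 kept its call without day 0 replicate 2 (0.0445) and lost it when any other single array was left out (0.0609 to 0.0706), with a difference of 1.45 to 1.64 log2. Adjusted over all probe sets together neither passed (0.1 and 0.117).

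Fbxl21, an F-box protein that acts on the cryptochromes, read 7.49 and 7.45 at day 0 and 9.27 and 8.58 at day 15. Day 15 was higher on both arrays, but these 2 lay apart, and limma gave 1.45 ± 0.26 log2 (SE) with an adjusted p of 0.0717, which misses the threshold. Settings under which it was called included the deposited scaling (0.0497), trend and robust settings (0.0336) and leaving out day 15 replicate 2 (0.0365). Bhlhe40 (DEC1), the close relative of Bhlhe41, was named after its values were seen. Bhlhe40 read 10.95 and 11.19 at day 0 and 12.05 and 11.99 at day 15. The days did not overlap, and the difference was 0.94 ± 0.18 log2 (SE, limma adjusted p = 0.081; 0.0441 with trend and robust settings). At an unadjusted limma p below 0.05, 7 of the 22 were higher and 1 lower, beside 7.38% and 4.78% of all genes. The median difference of the 22 was −0.02 log2.

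Genes known as outputs of the clock were a list of 16, of which 14 were measured. Of these, 2 rose, none fell and 12 did not pass by limma, beside 1.72% of all genes called. Bhlhe41, described above, is also in this list. Hsd11b1, the enzyme that regenerates active glucocorticoid inside cells, read 7.11 and 7.24 at day 0 and 9.88 and 9.56 at day 15. It rose 5.82-fold (2.54 ± 0.19 log2, SE, limma adjusted p = 0.00498). With all probe sets together the limma adjusted p was 0.0485, and the filter at the median level of all genes left Hsd11b1 out. Pdk4, a kinase that restrains pyruvate oxidation, was the next largest and read 12.27 and 12.01 at day 0 and 10.61 and 11.30 at day 15. Day 15 was lower on both arrays, by −1.19 ± 0.27 log2 (SE), with a limma adjusted p of 0.139.

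Because Per1 and Per2 also answer directly to serum, cAMP and glucocorticoids, 16 genes of those responses were read beside them. None passed by limma, beside 1.72% of all genes called. At an unadjusted limma p below 0.05, 4 were higher and 1 lower, beside 7.38% and 4.78% of all genes. Fos, an immediate early gene, read 10.78 and 7.99 at day 0 and 11.89 and 11.64 at day 15, so a single day 0 array was far below the other 3. The difference was 2.38 ± 0.84 log2 (SE, limma adjusted p = 0.333). It was 3.78 log2 and called (0.0033) without day 0 replicate 1, which leaves the low array alone at day 0, and 0.99 log2 and not called (0.231) without day 0 replicate 2. Of the same list, Fosb, Ier2, Egr1, Junb and Nr4a1 also read lowest on day 0 replicate 2. For Nr4a1 the day 0 arrays were close, at 9.79 and 9.72. The rest of the list did not read lowest there, Dusp1, Nr4a2, Crem and Sik1 among them. At day 0 Fosb read 9.73 and 8.29 and Ier2 9.53 and 8.53, while Dusp1 read 13.04 and 13.35. The cause was not tested. Sgk1, a kinase induced by serum and glucocorticoids, read 12.12 and 12.73 at day 0 and 11.62 and 11.05 at day 15 (limma adjusted p = 0.201). Tsc22d3 (GILZ), a glucocorticoid target, read 10.44 and 10.82 at day 0 and 11.50 and 11.32 at day 15 (limma adjusted p = 0.19). Both were apart between days without passing, Sgk1 lower and Tsc22d3 higher, and 40.1% of all genes likewise did not overlap between days.

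The arrays also differed by replicate number. For 8 of the 10 clock genes the gap between replicate 1 and replicate 2 had the same sign on both days, as it had for 62.6% of all genes. Replicate 2 was higher on both days for Nr1d1, Nr1d2, Per3, Cry2 and Clock, and replicate 1 for Cry1, Per2 and Arntl. Macrophage markers moved with the replicate number too: 8 of 10 were higher on the replicate 1 array of both days. C1qb read 11.36 and 6.09 at day 0 and 11.11 and 5.80 at day 15. The summed linear intensity of the 10 markers was 1928 to 9260 at day 0 and 2655 to 9057 at day 15, with the replicate 1 array the higher on both days, and none was at 0. Their part in the replicate gaps of the clock genes was not tested.

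**Figure D3:**
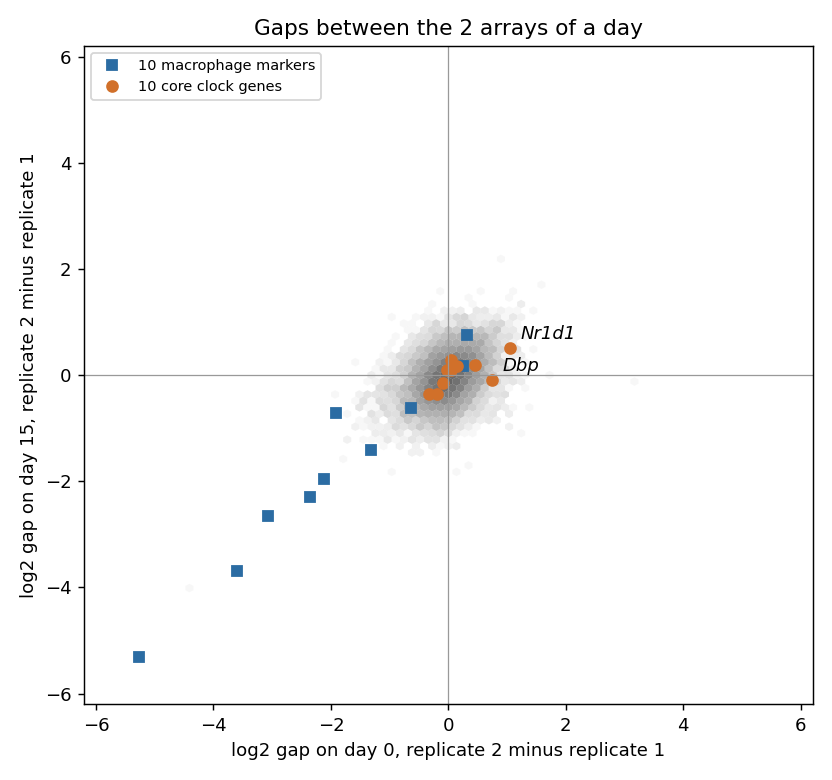
Gap between the 2 arrays of a day (replicate 2 minus replicate 1, log2) at day 0 on the horizontal axis and at day 15 on the vertical axis, with all 19938 genes in grey, the clock genes as orange circles and the macrophage markers as blue squares. Nr1d1 lies to the upper right at 1.05 and 0.50, Dbp to the right at 0.74 and −0.09, and 8 of the 10 macrophage markers to the lower left.

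The day difference can be read within each replicate number. In the replicate 2 arrays alone, where the summed macrophage markers were lower though Adgre1 and Ptprc were not, day 15 minus day 0 was 0.76 log2 for Arntl, 0.88 for Per3, 0.42 for Cry1 and 0.56 for Dbp. The replicate 1 arrays gave 0.82 for Arntl, 0.65 for Per3, 0.46 for Cry1 and 1.40 for Dbp. Arntl, Per3 and Cry1 thus differed by similar amounts in both, and Dbp by more in the replicate 1 arrays. Nr1d1 gave −0.47 in the replicate 2 arrays and 0.08 in the replicate 1 arrays. These are single arrays and carry no test.

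**Figure D4:**
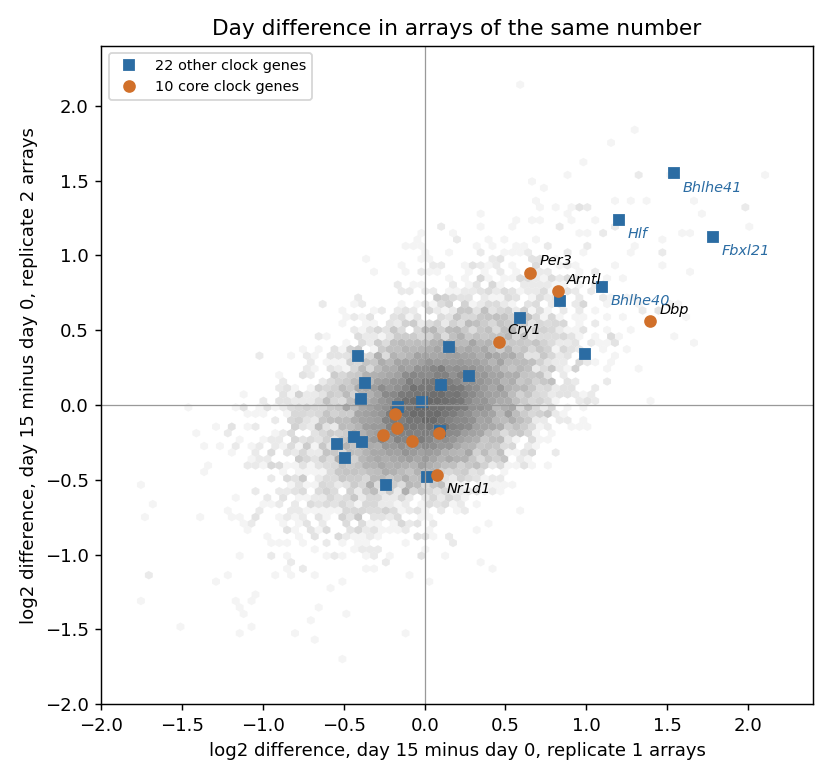
Log2 difference, day 15 minus day 0, in the replicate 1 arrays (horizontal) and in the replicate 2 arrays (vertical), with all genes in grey, clock genes as orange circles and the 22 other clock genes as blue squares. Arntl, Per3, Cry1, Dbp, Bhlhe41 and Hlf lie in the upper right, and 244 genes beyond the axes are not shown.

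The labelled cell type was checked by chondrocyte markers, of which 6 of 10 rose by limma and none was called lower. Of all genes, 1.3% were called higher and 0.411% lower. The 6 were Col2a1, Acan, Hapln1, Matn1, Col10a1 and Ucma. Sox9 did not pass (limma adjusted p = 0.533) and read 11.88 to 12.19 at day 0 and 12.26 to 12.75 at day 15. Ihh was lower on both day 15 arrays without passing, with 9.09 and 9.29 at day 0 and 8.67 and 8.97 at day 15. Skeletal muscle markers, which served as a guide to dim probe sets, read 6.26 to 8.46 on all arrays. The day 0 values of Hsd11b1, Hlf and Fbxl21 lay within that range, so their folds start from dim values. The clock genes read 8.72 to 12.80, and all 10 were at or above the median level of all genes, 8.72. The summed linear intensity of 8 adipocyte markers was 4618 and 5382 at day 0 and 3505 and 3464 at day 15, and that of 5 myelin and glia markers was 3117 and 1997 at day 0 and 4613 and 4321 at day 15. Of these, Cnp read 10.82 and 10.31 at day 0 and 11.68 and 11.84 at day 15, while Mbp read 9.35 and 6.52 and then 9.42 and 6.61, higher on the replicate 1 array of both days. Of the adipocyte markers, Pparg read 11.47 and 11.68 at day 0 and 10.61 and 10.60 at day 15. None of these 3 lists had a member called by limma. At an unadjusted limma p below 0.05 there was 1 adipocyte gene, 1 myelin or glia gene and 0 muscle genes, beside 12.2% of all genes. Their part in the clock genes' values was not tested.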

How the data were processed

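The authors deposited 1 processed linear intensity per probe set and array (35512 probe sets, 0.72 to 23103). How background, probe summary and scaling were handled is not stated by the labels. The build was mm9, per the submitters' processing notes, and no coordinates of that build are printed. The 21789 probe sets with 1 symbol gave 19938 genes, the brightest probe set standing for each. Values were turned to log2 after adding 1 and quantile normalized, since array medians differed by 0.2 log2. Day 15 was compared with day 0 by limma 3.58.1 (R 4.3.3; lmFit, eBayes, group only, 4 arrays), two-sided, with Benjamini-Hochberg adjustment over all genes at 0.05. SE and 95% intervals are limma's. Tested on simulated data of 19938 genes for this comparison, the fit recovered 8% of changes of 1 log2 (2-fold), 90% of 2 and 100% of 4.

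The 4 arrays limit the precision. Whether the samples were separate cultures is not in the labels, so the spread behind each p-value may be technical only. No detection call was used. Members and lists were chosen with earlier results of these data known. Named beside the 10 clock genes were the called members and the 3 largest differences of each list, and the markers. For likeness the 3 genes nearest to the clock gene with the largest difference were named. Bhlhe40 was an exception, named after its values were seen. So were Fosb, Ier2, Egr1, Junb, Nr4a1, Dusp1, Nr4a2, Crem and Sik1 of the serum, cAMP and glucocorticoid list. List members not matched to a tested gene were not analysed here. Alternatives were other scalings, a pseudocount of 16, a level filter, trend and robust settings, the replicate block, the mean of probe sets, all probe sets together and leaving out each array. Figures were drawn with matplotlib 3.10.9.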

Additional observations from a re-analysis of the deposited data

How the results depend on the processing

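No clock gene was called in either direction by limma under any of the 12 alternative settings tested. Dbp, Arntl, Per3 and Cry1 were also higher at day 15 on the deposited scaling, after median centring and with a pseudocount of 16. The other settings, and the replicate 2 arrays alone, chosen after seeing the data, could not turn that sign. They reuse the same values or leave out arrays, and both day 15 arrays lay above both day 0 arrays for these genes. Over those 12 settings limma adjusted p ran from 0.0623 to 0.394 for Arntl, 0.0754 to 0.395 for Per3 and 0.0829 to 0.508 for Dbp. Leaving out 1 array moved Nr1d1 between −0.72 and 0.33 log2, Nr1d2 between −0.28 and 0.18 and Per2 between −0.34 and 0.019 (without day 15 replicate 2), so their sign is not settled, and the cause was not tested. Of the other clock genes 2 were called, against 1 with the level filter, which left out Hlf, 3 on the deposited scaling, 4 with trend and robust settings, none with all probe sets together and 0 to 1 when 1 array was left out. That 1 gene was Bhlhe41 without day 0 replicate 2 and Fbxl21 without day 15 replicate 2. In all, 342 genes were called, 74 probe sets with all probe sets tested together, and 178 to 284 genes when 1 array was left out, the lowest without day 15 replicate 1. There a day with 1 array left takes its spread from the pair of the other day. With the replicate number as a block 628 genes were called, no clock gene and 3 of the other clock genes, with Fbxl21 added (limma adjusted p = 0.0335). Deviations of same-numbered arrays correlated at 0.403 over genes, but with 2 pairs the labels do not show that the numbers mark a shared batch.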
